A study of Mus musculus with 24 samples.

Results

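Liver from mice without either copy of tRNA-Phe-2-1 (tRNA-Phe-2-1-/-) was compared with liver from wild-type (WT) mice by RNA sequencing, to ask which transcripts differ when 1 gene for a phenylalanine transfer RNA is missing. The members were the 3 liver samples titled as this knockout and the 3 titled as wild type, 6 of the 24 samples of the series, chosen by their titles alone. The whole series held 4 genotypes in brain and liver, with 3 samples (A, B and C) in each group. By the study's description, the mice of each group were males on the C57BL/6N background, about 10 weeks old. They were kept on normal chow in a light and dark cycle of equal parts. The study describes WT mice as matched to the mutants by age and litter, and also the use of mice from different litters. The sample titles give tissue, genotype and replicate only. The deletions were made with the nuclease Cas9, are carried through the germline, and each line was bred for at least 10 generations before use. Each sample is taken here as a separate mouse. The total read count recovered from the normalised counts was 32276896 to 43736333 in WT and 39357744 to 51584522 in tRNA-Phe-2-1-/-, and 21318 to 21903 genes had a count above 0 in a sample. The mitochondrial RNAs held 4.61% to 5.76% of the counts in WT and 4.82% to 5.11% in tRNA-Phe-2-1-/-.

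A transfer RNA carries one amino acid to the ribosome and reads its codons through 3 bases, the anticodon. The mouse genome has several copies of most tRNA genes, and the copies for phenylalanine share the anticodon GAA, which reads both phenylalanine codons. RNA polymerase III transcribes these genes, enzymes modify the transcript, and phenylalanyl-tRNA synthetase loads it with phenylalanine. A liver cell uses them to make plasma proteins and the enzymes of lipid, sugar and amino acid metabolism, and liver is also the main site of phenylalanine breakdown.

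The guide RNA that directed Cas9 is shown first because a single sequence is shared by all the targeted genes, so the lines differ in which copy was lost. The bases next to the cut that Cas9 requires (the PAM) are in capitals.

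Guide: gcgttagactgaagatctaaAGG

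This sequence with an NGG PAM matched the GRCm39 genome at 7 places, all of them tRNA-Phe genes. The match in tRNA-Phe-2-1 lay on the plus strand at chr19:11985932-11985954 of that build. Around each match the 73-base gene could be read, and 5 of the 7 genes had the sequence of tRNA-Phe-1-1. The genes of the 3 lines are set out below to show how little they differ, with capitals at the bases that distinguish the first pair and, in the last, at the base not shared with the first.

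tRNA-Phe-1-1: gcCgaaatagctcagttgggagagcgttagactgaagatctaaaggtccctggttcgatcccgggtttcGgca

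tRNA-Phe-2-1: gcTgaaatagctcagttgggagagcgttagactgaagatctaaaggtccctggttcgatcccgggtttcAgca

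tRNA-Phe-3-1: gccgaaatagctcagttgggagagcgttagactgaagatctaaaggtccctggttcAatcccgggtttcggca

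Counted from 1 at the 5′ end of the gene, tRNA-Phe-2-1 differed from tRNA-Phe-1-1 by 2 substitutions, C3T and G70A, which stand opposite each other in the acceptor stem and exchange a C-G pair for a T-A pair. The third sequence, tRNA-Phe-3-1, carried the single substitution G57A. The anticodon, bases 34 to 36, was GAA in all 7 genes. The deposited tables list genes read from long RNA, and the tRNA itself was not measured in them, so the knockout could not be checked by its own target.

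In the GRCm38.p6 build used for the files, RefSeq lists the gene at chr19:12008545-12008617 as n-TFgaa2. It was identified by its distance of 6309 bases from the second tRNA-Phe gene of that chromosome, n-TFgaa6, which is also the distance between the guide matches. The 5 tested genes on each side of it did not pass the test, with log2 fold changes from -0.41 for Patl1, a component of mRNA decapping bodies, to 0.53 for Gm4952. Osbp, which encodes an oxysterol-binding protein and ends 14431 bases before the tRNA gene, had 3091, 2803 and 2893 normalised counts in WT and 2619, 2589 and 2828 in tRNA-Phe-2-1-/-. These groups overlapped, and the log2 fold change was -0.13 (95% confidence interval -0.34 to 0.08).

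Few liver genes passed the test. Of 15856 genes tested, 21 did (0.132%), of which 19 fell (0.12%) and 2 rose (0.0126%) in tRNA-Phe-2-1-/-, by limma on log2(normalised count + 1) with Benjamini-Hochberg adjusted p below 0.05. Fold changes here and below are log2 values of tRNA-Phe-2-1-/- minus WT on this scale, given with the standard error (SE) of the model. Before adjustment, 7.79% of genes were lower and 7.13% higher at p below 0.05. All 3 knockout samples lay below all 3 WT samples for 12.2% of genes and above them for 13.1%. The median log2 fold change of all genes was 0.00, and 9 in 10 genes lay between -0.75 and 0.50.

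The call of single genes rested on every library but 1. Without WT replicate A, 38 genes passed, and leaving out WT replicate B, WT replicate C or any one of the 3 tRNA-Phe-2-1-/- samples left 0 genes past the threshold. The fit of the 6 compared samples alone gave 176 genes, and count tests on recovered reads gave 8 with edgeR and 527 with DESeq2. For one gene taken alone, exact permutation of 3 and 3 labels has a smallest two-sided p of 0.1.

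The genes that fell are described by what their products do, a grouping made for reading and not tested. Nfic and Nfia encode nuclear factor I transcription factors. Nfic had 1773, 1774 and 1680 normalised counts in WT and 934, 976 and 1060 in tRNA-Phe-2-1-/-, so that the groups lay far apart (log2 fold change -0.82, SE 0.10, limma adjusted p = 0.0139, 3 samples each). Nfia had 2292, 2305 and 2606 counts in WT and 1380, 1316 and 1525 in the knockout (-0.77, SE 0.11, limma adjusted p = 0.0298). For Zmiz1, a coactivator of several transcription factors, the values were 1406, 1514 and 2077 in WT and 716, 806 and 745 in the knockout. Its log2 fold change was -1.12 (SE 0.14, limma adjusted p = 0.0139). With 1 sample left out it ranged from -1.23 without WT replicate A to -0.95 without WT replicate C, the highest sample. Cdc73, a subunit of the PAF1 complex that travels with RNA polymerase II, fell from 979, 1113 and 1269 counts to 699, 710 and 656.

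Eif4ebp2 encodes a protein that binds the cap-binding factor eIF4E and holds back translation, and Eif1 a factor used to select the start codon. Eif4ebp2 fell from 5317, 5908 and 6224 counts in WT to 3183, 3248 and 3273 in tRNA-Phe-2-1-/- (log2 fold change -0.84, SE 0.10, limma adjusted p = 0.0139). The knockout samples lay close together, and their spread was far smaller than the gap to WT. Eif1 fell from 2861, 2933 and 3130 to 1754, 1951 and 2035 counts (-0.64, SE 0.09, limma adjusted p = 0.029). Pcbp2, which binds C-rich stretches of RNA, fell from 2245, 2398 and 2415 to 1478, 1361 and 1560 counts (-0.68, SE 0.08). Zfp36, an early-response gene whose product speeds the decay of AU-rich mRNAs, fell from 1495, 1114 and 2972 to 291, 509 and 391 counts (-2.14, SE 0.32, limma adjusted p = 0.0348). WT replicate C was the highest sample of this gene, and the WT group was wide.

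A second set of genes belongs to fuel metabolism. Acly, ATP-citrate lyase, supplies cytosolic acetyl-CoA for fatty acid and sterol synthesis, and held 44519, 36709 and 45800 counts in WT against 11766, 17543 and 12407 in tRNA-Phe-2-1-/-. The log2 fold change was -1.62 (SE 0.22, limma adjusted p = 0.0298), and the gene lies at chr11:100476352-100528000 of GRCm38.p6. Pgd, which makes NADPH in the pentose phosphate pathway, fell from 1408, 1155 and 1369 counts to 757, 787 and 767 (-0.76, SE 0.12, limma adjusted p = 0.035). Pdk2, a kinase that switches off pyruvate dehydrogenase, fell from 862, 805 and 1033 to 467, 507 and 573 counts. Slc25a23, a carrier for ATP and phosphate in the inner mitochondrial membrane, had close replicates in both groups, at 3812, 4002 and 3984 counts in WT and 2014, 1982 and 1996 in the knockout (-0.98, SE 0.11, limma adjusted p = 0.0139). Cideb, a lipid droplet protein of hepatocytes used in VLDL assembly, fell from 2559, 2565 and 2585 to 1627, 1877 and 1905 counts.

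Ppard, the nuclear receptor PPAR-delta, was among the larger falls. It had 675, 997 and 968 counts in WT and 253, 132 and 108 in tRNA-Phe-2-1-/- (log2 fold change -2.49, SE 0.36, limma adjusted p = 0.033). Fras1, an extracellular matrix protein, fell from 769, 1015 and 917 to 172, 294 and 246 counts (-1.94, SE 0.29). Reep6, which shapes membranes of the endoplasmic reticulum, fell by 0.87 on the log2 scale, the prostaglandin reductase gene Ptgr3 by 0.65 and the aminopeptidase family gene Rnpepl1 by 0.61. The genes that rose were Nlrp12, a cytosolic sensor that restrains inflammatory signalling, from 997, 661 and 682 to 1437, 1637 and 1450 counts (0.97, SE 0.15, limma adjusted p = 0.038), and Hax1, a mitochondrial survival factor, from 1239, 1350 and 1226 to 1673, 1745 and 1744 (0.44, SE 0.07, limma adjusted p = 0.0348). None of the 21 genes overlapped between the groups, beside 25.4% of all genes tested that did not overlap either. The 21 were chosen by a test on these same values.

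**Figure D1:**
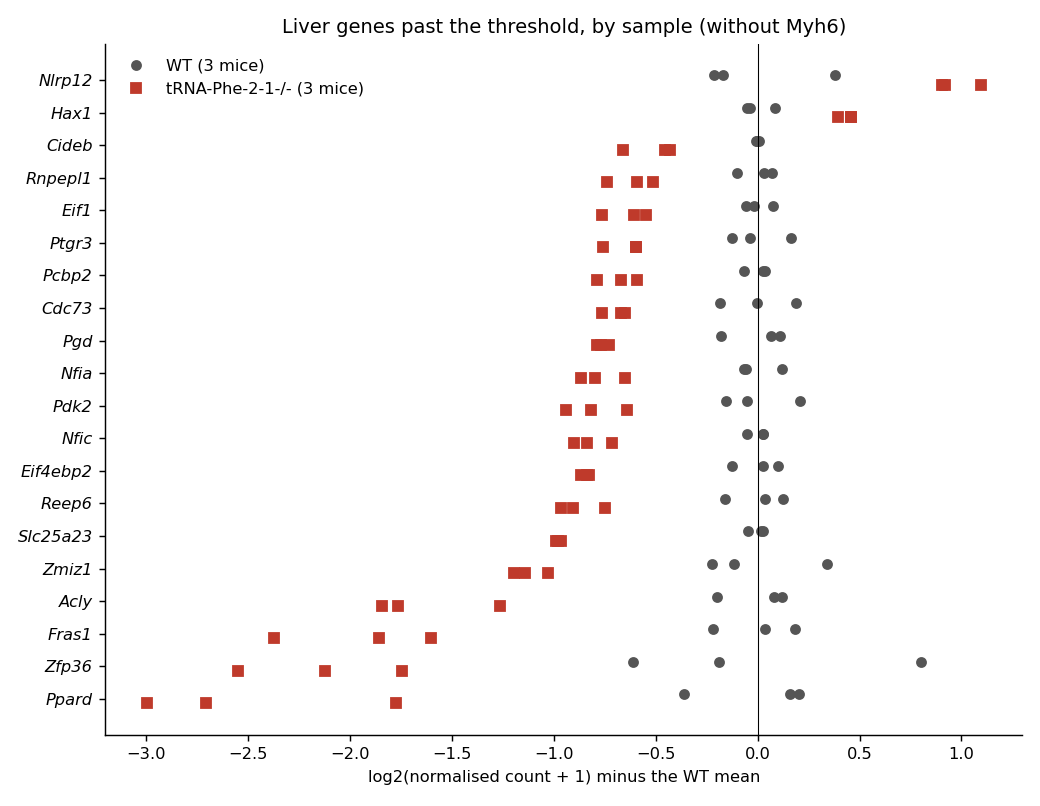
Liver genes past the threshold in tRNA-Phe-2-1-/- against WT. Each point is 1 of the 6 liver samples, placed by its log2(normalised count + 1) minus the WT mean of that gene (circles, WT; squares, tRNA-Phe-2-1-/-); for each gene the groups are apart, with Nlrp12 and Hax1 to the right and the others to the left, and Ppard, Zfp36 and Fras1 show the widest spread between samples. Myh6 is left out because the knockout samples held no read of it.

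The remaining call, Myh6, encodes the myosin heavy chain of heart muscle. It had 7.82, 76.1 and 62.3 counts in WT and 0 in each tRNA-Phe-2-1-/- sample, so its fitted fold change depends on the pseudocount and is not given. The gene reached the minimum mean of 10 counts through WT replicates B and C, and was not tested with either left out. Its limma adjusted p was 0.038, but 0.0704 and 0.0663 with pseudocounts of 0.1 and 5, and 0.0582 with quantile scaling. The 21 calls and 19 falls include it. Ttn, the muscle protein titin, chosen after its values were seen, had 47.9 counts in WT replicate A, 313 in B, 320 in C and 31.3 to 48.9 in the knockout. Of other cardiac genes, also named after their values were seen, Myl2 had 3.91, 5.93 and 9.08 counts in WT and 0 in the knockout. Tnni3 had 7.82, 11.9 and 13.0 against 3.21, 7.61 and 2.77. Myl3 had 0, 4.94 and 5.19 against 0, and Mybpc3 0.977, 9.88 and 7.78 against 0, 1.09 and 0. Tnnt2 had 5.86, 6.92 and 14.3 against 8.01, 10.9 and 12.0. Actc1, Myl7, Actn2, Pln and Ryr2 overlapped between the groups, and WT replicate B or C was highest of the 6 samples. Myh7 and Nppa were at 0 in all 12 liver samples. The skeletal muscle list (Acta1, Myh1, Myh4 and Ckm) summed to 1.95 to 16.9 counts in WT and 0 to 0.922 in the knockout. The part of muscle RNA in WT replicates B and C in the other results was not tested.

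Among the 10 protein-coding genes next to the threshold, 8 were lower and 2 higher. Nipal1, a magnesium transporter gene, had 216, 443 and 1331 counts in WT and 11.2, 12.0 and 10.1 in tRNA-Phe-2-1-/- (log2 fold change -5.38, SE 0.91, limma adjusted p = 0.0571), with a broad spread in WT and a narrow one in the knockout. Lss, lanosterol synthase, had 5790, 4854 and 8460 counts against 2518, 3046 and 2567 (-1.20, limma adjusted p = 0.0572). Nectin1, Tmem86b, Anp32b, Dynll2, Utp14b and 2310061I04Rik had log2 fold changes of -1.05 to -0.73. Plpp1, a phosphatidic acid phosphatase, had 490, 476 and 463 counts against 776, 719 and 728 (0.63, limma adjusted p = 0.0614), and Rab11a, a GTPase of recycling endosomes, had a log2 fold change of 0.44.

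Hepatocytes make fatty acids from sugar through citrate, acetyl-CoA and malonyl-CoA, under the transcription factors SREBP-1c and ChREBP, and their log2 fold changes lay below 0 throughout. Of the 22 fatty acid synthesis genes, all of them tested, 1 fell past the threshold (Acly), 0 rose, and 22 had a negative log2 fold change. In 16 of the 22 the knockout samples all lay below WT, against the 12.2% of all genes given above, and in 0 they all lay above. The median log2 fold change of the list was -0.75, and it ranged from -0.86 to -0.64 with any one library left out. The list counts as a description only, since no set test was made.

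Pnpla3, a lipid droplet enzyme under SREBP-1c, had 591, 216 and 352 counts in WT and 12.8, 62.0 and 31.3 in the knockout (-3.55, SE 0.68, limma adjusted p = 0.0684). Srebf1, which encodes SREBP-1, had 16826, 13746 and 16062 counts against 9217, 10488 and 9942 (-0.65, SE 0.14, limma adjusted p = 0.0785). Acacb, the acetyl-CoA carboxylase of the mitochondrial surface, had 13688, 9845 and 13528 counts against 4925, 7431 and 4952, and Gpam, the first enzyme of glycerolipid synthesis, had 29606, 22525 and 29028 against 13761, 17582 and 17758 (limma adjusted p = 0.1 for both). The groups did not overlap in these 4 genes. The most abundant member, Scd1, the desaturase that makes oleate, named after its values were seen, had 698456, 556287 and 658872 counts in WT and 144945, 420773 and 287907 in the knockout (-1.29, SE 0.47, limma adjusted p = 0.25), with a wide range among the knockout samples. Summed over the 22 genes, WT held 878402 to 1195192 counts and tRNA-Phe-2-1-/- 336244 to 667932.

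Cholesterol synthesis draws on the same acetyl-CoA and answers to SREBP-2. Of its 22 genes, all tested, 0 passed, 10 lay wholly below WT and 0 wholly above (12.2% and 13.1% of all genes), and the median log2 fold change was -0.40 (-0.52 to -0.27 with one library left out). Lss, described above, is a member. Dhcr7, the last step to cholesterol, had 2759, 2578 and 3447 counts against 1441, 1419 and 1324 (-1.06, SE 0.21, limma adjusted p = 0.0742). Triglyceride assembly and lipid droplet genes lay on both sides of 0, with a median of 0.13 over 21 tested genes (0.05 without WT replicate B and 0.27 without WT replicate A), 1 that fell (Cideb), and 6 negative and 15 positive log2 fold changes.

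**Figure D2:**
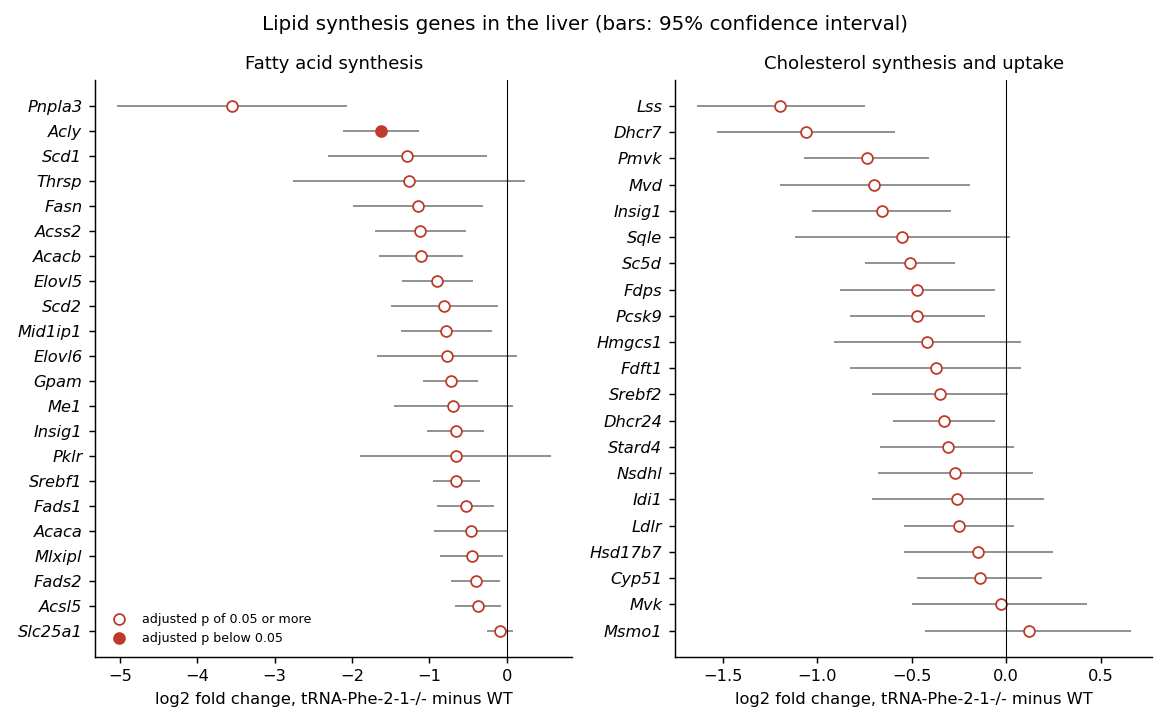
Lipid synthesis genes in liver tRNA-Phe-2-1-/- against WT. Points are log2 fold changes from the model of 12 liver samples, bars their 95% confidence intervals and the filled point the gene past the threshold; all 22 fatty acid synthesis genes lie left of 0, with Pnpla3 and Acly farthest, and the cholesterol genes drawn do so too, except Msmo1. One gene of the cholesterol list is not drawn.

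Fatty acid oxidation genes, which PPAR-alpha switches on in fasting, held no call. Of 23 tested, 0 passed, 19 had a positive log2 fold change, 11 lay wholly above WT and 1 wholly below, and the median was 0.20. These counts and those of the lists that follow stand beside 13.1% of all genes wholly above and 12.2% wholly below. Acadm, medium-chain acyl-CoA dehydrogenase, had 7731, 8243 and 8075 counts in WT and 9948, 10328 and 10553 in the knockout (0.36, SE 0.11, limma adjusted p = 0.199). Pdk4 was the member that lay below WT, at 816, 699 and 746 against 275, 625 and 518 counts. Of the 26 nuclear receptor genes, 1 fell (Ppard), and the lowest log2 fold change of the others was -1.52 for Esr1, the oestrogen receptor. Esr1 had 1357, 2645 and 2222 counts in WT and 812, 574 and 723 in the knockout (limma adjusted p = 0.129), and the groups did not overlap. Thra, a thyroid hormone receptor, had 569, 612 and 597 counts against 416, 408 and 392 (-0.55, SE 0.11, limma adjusted p = 0.0785). Among 23 genes of glucose metabolism and insulin signalling 0 passed, 7 lay wholly below WT and 0 wholly above, and the median was -0.16. Foxo1, a transcription factor that insulin shuts out of the nucleus, had 871, 835 and 937 counts in WT and 627, 598 and 553 in the knockout (-0.57, SE 0.11, limma adjusted p = 0.0684).

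Hepatocytes near the central vein and near the portal vein use different genes, and 0 genes of either set passed. All 10 pericentral genes had a positive log2 fold change (median 0.58, 0.45 to 0.76 with one library left out), and 7 of them lay wholly above WT. Slc1a2, a glutamate transporter of pericentral cells, had 4038, 2721 and 2732 counts in WT and 5688, 5471 and 6130 in tRNA-Phe-2-1-/- (0.89, SE 0.25, limma adjusted p = 0.158). Cyp2e1, the ethanol-oxidising cytochrome, had 88988, 65360 and 65799 counts against 141529, 128463 and 148631 (0.94, SE 0.37, limma adjusted p = 0.282). WT replicate A was the WT sample nearest to the knockout in both genes.

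Of the 9 periportal genes, 8 had a negative log2 fold change and 7 lay wholly below WT (median -0.72, -0.84 to -0.54 with one library left out). Ass1, argininosuccinate synthase of the urea cycle, had 66559, 111207 and 130612 counts in WT and 53156, 61634 and 57293 in the knockout (-0.79, SE 0.28, limma adjusted p = 0.238). Arg1, arginase, had 41077, 46910 and 42945 counts against 33925, 34077 and 33156, and Gls2, liver glutaminase, 10751, 17982 and 16837 against 8335, 9855 and 8919. In bulk RNA fewer cells of a type and less RNA per cell cannot be told apart. Markers of other liver cells are given here for the same samples. The 10 Kupffer cell markers summed to 11898 to 13020 counts in WT and 12775 to 14227 in the knockout, the 10 sinusoidal endothelial markers to 17464 to 21299 and 20721 to 21256, the 10 stellate cell markers to 17535 to 18897 and 16663 to 23567, and the 8 bile duct markers to 1151 to 1218 and 1105 to 1184. Spp1 gave the largest share of the bile duct sum, and the list was mixed within. Its 7 tested genes had a median log2 fold change of -1.19 (-1.27 to -0.97 with one library left out), the lowest of the lists drawn in the plot of gene lists, with 4 lower at unadjusted p below 0.05, 3 wholly below WT and 2 wholly above. Sox9, a transcription factor of bile duct cells, had 157, 197 and 184 counts in WT and 68.9, 84.8 and 61.8 in the knockout (-1.31, SE 0.42, limma adjusted p = 0.203). Spp1, osteopontin, had 736, 639 and 547 against 859, 794 and 920 (limma adjusted p = 0.221). The 10 hepatocyte markers, all detected, summed to 3470996 to 4374964 counts in WT and 3017461 to 3238193 in the knockout. These sums did not overlap, 0 of the 10 markers passed, and Ass1 is counted both here and in the periportal list. The 11 lymphocyte markers summed to 517 to 625 counts and 248 to 344, with the immunoglobulin gene Ighm at 427, 241 and 339 against 101, 194 and 104 (-1.36, SE 0.31, limma adjusted p = 0.104). The 4 adipocyte markers summed to at most 4.01 counts with Lep at 0, and Ly6g of the 9 neutrophil markers was at 0. The 4 exocrine pancreas markers summed to 569, 299 and 385 counts in WT and 767, 677 and 892 in the knockout, nearly all of them from Cela1 (0.96, SE 0.33, limma adjusted p = 0.229), and these groups did not overlap. The erythroid markers summed to 19777 to 26055 counts and 19256 to 38933. Whether the cell makeup takes part in the zonal difference was not tested.

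**Figure D3:**
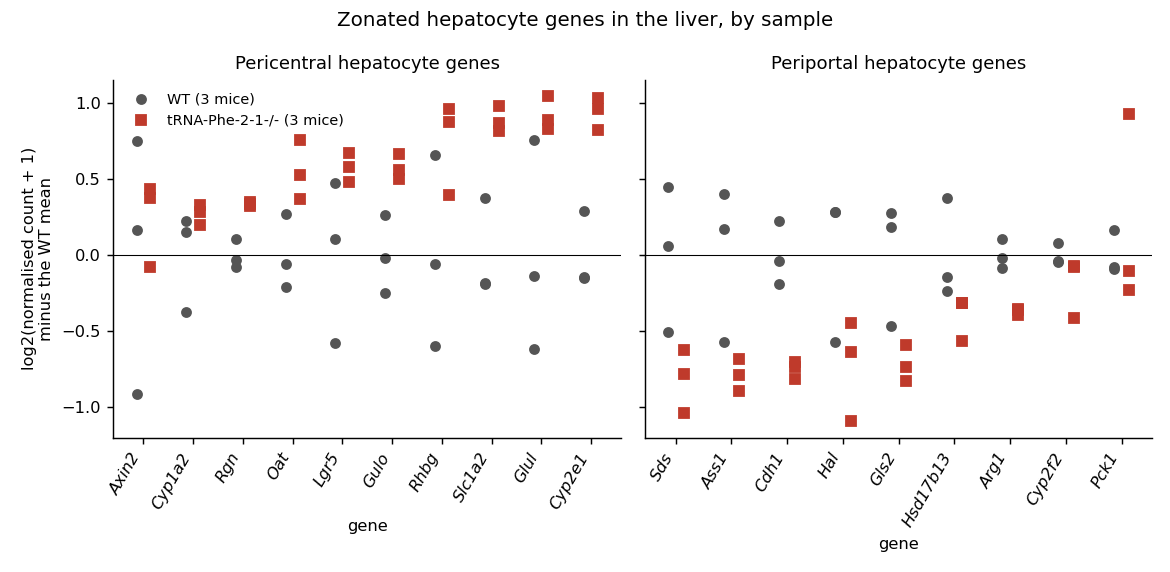
Zonated hepatocyte genes by liver sample. Each point is 1 sample at its log2(normalised count + 1) minus the WT mean of the gene (circles, WT; squares, tRNA-Phe-2-1-/-), with pericentral genes on the left and periportal genes on the right; knockout samples sit mostly above WT on the left and mostly below on the right, with Pck1 as the periportal gene that does not.

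The genes that work on tRNA-Phe and on phenylalanine held no call. Cytosolic phenylalanyl-tRNA synthetase is built from Farsa and Farsb. Farsa had 776, 605 and 667 counts in WT and 843, 667 and 736 in the knockout (log2 fold change 0.13, 95% confidence interval -0.14 to 0.41), and Farsb 1276, 1060 and 1135 against 1079, 1207 and 1307 (0.05, -0.16 to 0.26). The groups overlapped in both genes. Fars2, the mitochondrial enzyme, had 995, 1017 and 921 counts against 1087, 1361 and 1132 (0.28, 0.01 to 0.56, limma adjusted p = 0.327).

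None of 20 cytosolic synthetase genes, 21 genes for the modification of tRNA-Phe, 23 genes of RNA polymerase III, 18 genes for ribosome stalling and rescue or 7 elongation genes passed the test by limma. At unadjusted p below 0.05 these lists held 0, 0, 1, 1 and 1 lower and 1, 2, 2, 4 and 0 higher genes, and their median log2 fold changes were 0.04, 0.02, 0.06, 0.06 and -0.08, and between -0.09 and 0.10 in any of the 5 lists with one library left out. Sars1, seryl-tRNA synthetase, had the lowest adjusted p of the synthetases, at 1878, 1735 and 1548 counts in WT and 2112, 2118 and 2100 in the knockout (0.30, limma adjusted p = 0.144). Polr1d, a subunit shared by RNA polymerases I and III, had 1186, 1123 and 1066 counts against 1444, 1310 and 1412 (0.30, limma adjusted p = 0.112). In the phenylalanine and tyrosine catabolism list, 0 of 10 passed. Tat, which breaks down tyrosine and answers to glucocorticoids, had 38113, 39669 and 37038 counts in WT and 15361, 16932 and 21416 in the knockout (-1.11, SE 0.30, limma adjusted p = 0.152), and the groups lay well apart.

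Stress and signalling lists followed. The integrated stress response, which uncharged tRNA can switch on, had 0 of 21 tested genes past the threshold and a median of -0.06 (-0.12 to -0.03 with one library left out). In it 12 genes had a negative log2 fold change, 4 lay wholly below WT and 3 wholly above. Atf5, a transcription factor of this response, had 4023, 4038 and 3714 counts in WT and 2487, 2410 and 2887 in the knockout (-0.60, SE 0.28, limma adjusted p = 0.336), and these groups lay apart. Atf4, its main transcription factor, was at 3964, 3315 and 3090 counts against 4557, 4054 and 3721 (0.25, 95% confidence interval -0.01 to 0.51) and Ppp1r15a, which helps to end the response, at 214, 237 and 237 against 274, 494 and 411. ER chaperones had 0 of 22 past the threshold and a median of 0.12, which was 0.02 without tRNA-Phe-2-1-/- replicate C, 0.045 without WT replicate B and 0.20 without tRNA-Phe-2-1-/- replicate B. Of 28 immediate early genes 1 fell (Zfp36), 8 lay wholly below WT and 1, Cebpb, wholly above (764, 661 and 484 against 1241, 1145 and 1170 counts, limma adjusted p = 0.112). Glucocorticoid-responsive genes had 0 of 12 past the threshold, 5 wholly below WT and a median of -0.62, with Fkbp5, a standard target of the glucocorticoid receptor, at 797, 652 and 681 against 524, 322 and 496 counts (-0.69, limma adjusted p = 0.185).

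The clock genes rise and fall over the day. Those that peak with Dbp had a median of -0.01 (-0.20 without tRNA-Phe-2-1-/- replicate C and 0.20 without WT replicate A) with 0 of 12 past the threshold, and those that peak with Bmal1 a median of -0.61 with 0 of 5 past it. Npas2 had 321, 257 and 414 counts in WT and 171, 154 and 69.1 in the knockout, where replicate C was lowest. Without that sample the median of the Bmal1 group was -0.36. Several lipid genes also cycle over the day, and the part of sampling hour in their levels was not tested.

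Bile acid, cytochrome P450, acute phase, growth hormone and mitosis lists held 16, 15, 20, 12 and 22 tested genes and 0 calls. Cyp7b1, a bile acid and oxysterol hydroxylase that is higher in male liver, had 8332, 2006 and 2295 counts in WT and 15553, 14745 and 17189 in the knockout (2.23, SE 0.59, limma adjusted p = 0.145). Mup3, a major urinary protein gene under growth hormone, had 252749, 137675 and 127173 counts against 293582, 288266 and 291299 (0.83, limma adjusted p = 0.326). WT replicate A stood between the other WT samples and the knockout in both. The growth hormone list had a median of 0.53, with Igf1 at 16584, 19296 and 17346 counts against 16741, 15530 and 15233. Among the cytochromes, Cyp2b9 had 28.3, 347 and 658 counts in WT and 30.4, 15.2 and 0.922 in the knockout (-4.25, SE 1.34, limma adjusted p = 0.199), and Cyp2b10, named after its values were seen, 18.6, 304 and 322 against 25.6, 16.3 and 10.1. For both, as for Ttn, WT replicate A lay at the level of the knockout and WT replicates B and C far above it. Itih4 of the acute phase list had a log2 fold change of -0.33 and Kif11 of the mitosis list one of 0.47. The Y-linked genes Ddx3y, Eif2s3y, Kdm5d and Uty were expressed in all 6 samples, as males should show, and Nnt, which is deleted in another substrain of C57BL/6, was at 1638 to 2206 counts in WT and 1781 to 1847 in the knockout.

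**Figure D4:**
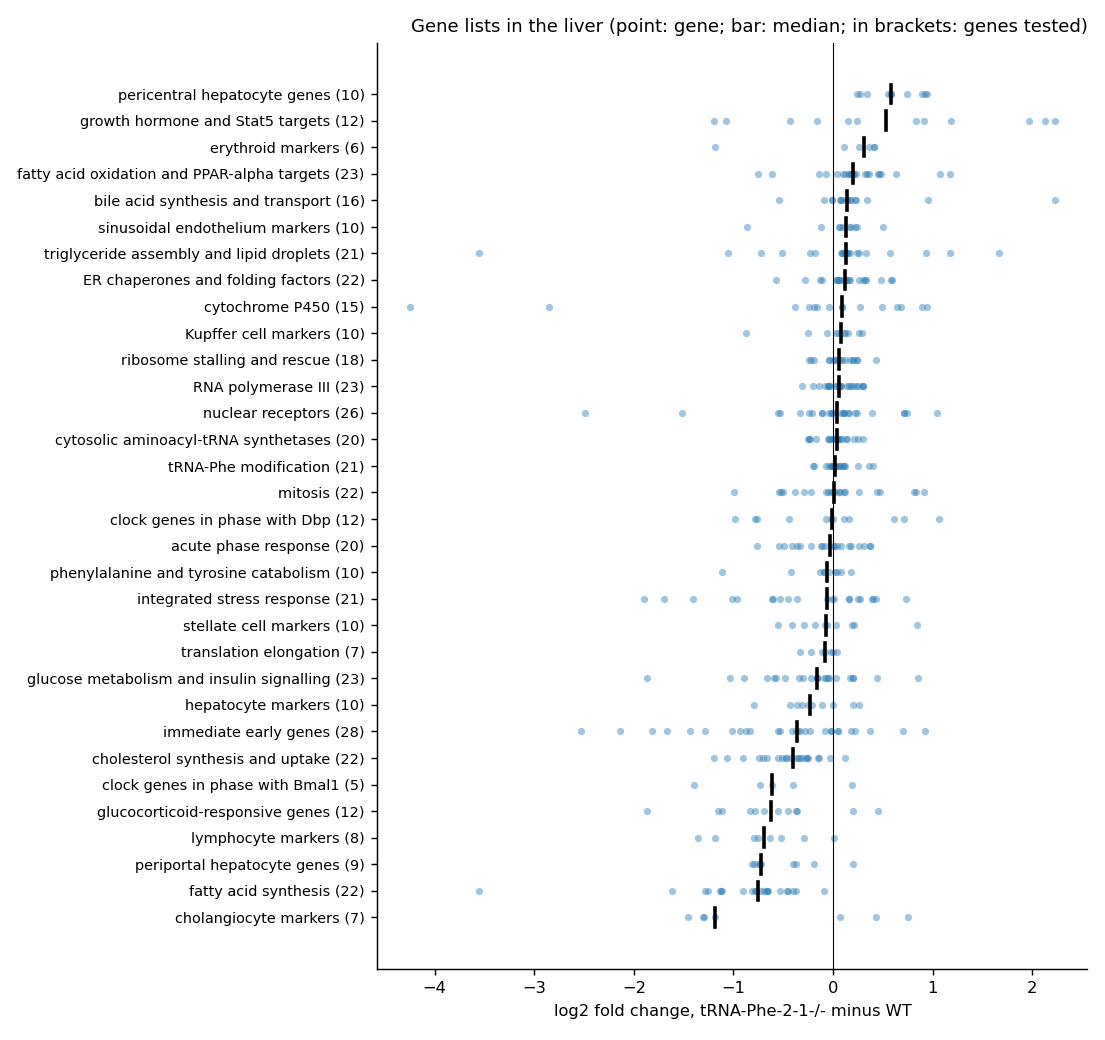
Gene lists in liver tRNA-Phe-2-1-/- against WT. Points are the log2 fold changes of single genes, bars the median of the list and the number in brackets the genes tested; the synthesis lists of fatty acids and cholesterol and the periportal genes have medians below 0, the pericentral genes above 0, and the lists of the translation machinery have medians from -0.08 to 0.06.

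The promoters of the lipid genes were read because these genes stood lower together. RefSeq promoters (GRCm38.p6, 250 bases before to 50 after the start of a transcript) were found for 19 of the 22 fatty acid synthesis genes and 16 of the 19 genes that fell. The words CACGTG (E-box), TCACNCCAC (sterol element), GGGCGG (GC box) and CCAAT were counted on both strands. CCAAT was in 64.0% of 25 promoters of the fatty acid list, 82.4% of 17 promoters of the cholesterol list and 37.7% of 13768 promoters of all tested genes. GGGCGG was in 48.0%, 82.4% and 58.9%, CACGTG in 16.0%, 23.5% and 9.43%, and TCACNCCAC in 4.00%, 5.88% and 1.18% of them. Among 20 promoters of the genes that fell, GGGCGG was in 70.0%, CCAAT in 45.0%, CACGTG in 5.00% and TCACNCCAC in 0. The promoters of Acly, the called gene of the fatty acid list, and of Ppard, the called nuclear receptor, are printed with these words in capitals, GC boxes and CCAAT being the ones present.

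Acly promoter, GRCm38.p6 chr11:100527951-100528250, minus strand: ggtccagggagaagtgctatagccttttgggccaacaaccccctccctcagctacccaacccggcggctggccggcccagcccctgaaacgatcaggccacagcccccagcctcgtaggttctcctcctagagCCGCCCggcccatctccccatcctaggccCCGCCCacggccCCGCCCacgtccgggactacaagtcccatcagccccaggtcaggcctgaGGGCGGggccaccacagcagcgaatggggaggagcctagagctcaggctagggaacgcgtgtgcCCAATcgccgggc

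Ppard promoter, GRCm38.p6 chr17:28232504-28232803, plus strand: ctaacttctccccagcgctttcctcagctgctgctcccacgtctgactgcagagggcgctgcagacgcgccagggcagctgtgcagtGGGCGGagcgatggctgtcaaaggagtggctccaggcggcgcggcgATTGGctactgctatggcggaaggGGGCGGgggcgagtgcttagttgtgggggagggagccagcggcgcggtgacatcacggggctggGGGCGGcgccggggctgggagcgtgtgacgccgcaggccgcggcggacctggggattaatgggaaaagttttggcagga

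The length, base composition and phenylalanine content of the transcripts were set beside the fold changes of 13067 protein-coding genes. Across genes, which are not independent replicates, Spearman's rho with the log2 fold change was -0.113 for transcript length, -0.094 for GC content, 0.038 for the share of phenylalanine codons and 0.079 for the share of the codon UUU, all of them weak. The 21 called genes had a median phenylalanine share of 3.65%, against 3.60% over all. In the 1307 genes richest in phenylalanine, with 5.81% or more, 1 was called and the median log2 fold change was 0.04, and in the 1307 poorest, with at most 1.89%, 2 were called and the median was 0.02.

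Against the other knockout livers, tRNA-Phe-2-1-/- was tested directly. With tRNA-Phe-3-1-/- as the comparator, 0 of 15856 genes passed (0%, lowest limma adjusted p 0.107), with 1059 genes at unadjusted p below 0.05, and on recovered reads edgeR called 0 and DESeq2 56, with 2 samples of tRNA-Phe-3-1-/- in these count tests. Of the 21 genes called against WT, the widest log2 difference from tRNA-Phe-3-1-/- was 0.79 and the lowest limma adjusted p 0.644, which does not show that the lines are alike. Between tRNA-Phe-2-1-/- and tRNA-Phe-1-1-/-, 2521 genes passed (15.9%), 1352 higher and 1169 lower in tRNA-Phe-2-1-/-. This number was 1149 without tRNA-Phe-2-1-/- replicate B, 1467 without replicate C and 1547 without tRNA-Phe-1-1-/- replicate A.

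Of the 21 genes called against WT, 18 were also called in tRNA-Phe-3-1-/- against WT, where 140 of 15856 genes passed. In tRNA-Phe-1-1-/- against WT 14 of them were called, where 2751 of 15856 genes passed. Their log2 fold change had the same sign as here in 21 and 20 genes. Between tRNA-Phe-2-1-/- and tRNA-Phe-1-1-/-, 9 of the 21 differed. The tests between these lines share the knockout samples by which the genes were chosen. Cdc73 showed the widest difference, with 1332, 1367 and 1173 counts in tRNA-Phe-1-1-/- beside 699, 710 and 656 in tRNA-Phe-2-1-/- and 704, 793 and 681 in tRNA-Phe-3-1-/- (log2 difference from tRNA-Phe-1-1-/- -0.90, limma adjusted p = 0.000466). Nfic had 1673, 1739 and 1434 counts in tRNA-Phe-1-1-/-, near WT, and 838, 705 and 751 in tRNA-Phe-3-1-/- (difference from tRNA-Phe-1-1-/- -0.70, limma adjusted p = 0.000979). Acly, by contrast, was at 10062, 11852 and 16281 counts in tRNA-Phe-1-1-/- and 19609, 14057 and 11481 in tRNA-Phe-3-1-/-, ranges that overlap that of tRNA-Phe-2-1-/- (difference from tRNA-Phe-1-1-/- 0.13, limma adjusted p = 0.727). Ppard had 134, 168 and 159 counts in tRNA-Phe-1-1-/- and 165, 67.5 and 71.4 in tRNA-Phe-3-1-/-. All 3 lines were set against the same 3 WT samples, so a high or low WT value enters each of them.

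The medians of several lists are given by line, with no test of a list between lines. For fatty acid synthesis the median log2 fold change against WT was -0.75 in tRNA-Phe-2-1-/-, -1.08 in tRNA-Phe-1-1-/- and -0.90 in tRNA-Phe-3-1-/-, again with shared WT samples. For the Dbp-phase clock genes these medians were -0.01, 2.21 and 1.36, and for the acute phase list -0.03, 0.99 and -0.04. In the same order they were 0.58, 0.36 and 0.68 for the pericentral genes and -0.72, -0.38 and -0.22 for the periportal genes. The glucocorticoid-responsive genes had -0.62, 1.41 and -0.52, and the ER chaperones 0.12, 0.71 and -0.12. Cholesterol synthesis had -0.40, -0.24 and -0.40. In the direct test of tRNA-Phe-2-1-/- against tRNA-Phe-1-1-/-, 7 of 12 Dbp-phase genes, 16 of 20 acute phase genes and 6 of 22 fatty acid synthesis genes passed, beside 15.9% of all genes. Of the other lists, 9 of 12 glucocorticoid-responsive genes, 11 of 22 ER chaperones, 1 of 10 pericentral, 2 of 9 periportal and 5 of 22 cholesterol genes passed in it. The part of sampling hour in the difference between these 2 lines was not tested. Against tRNA-Phe-3-1-/- 0 genes of these lists passed by limma, as for all genes. Steap4, an acute phase ferrireductase, had 3628, 3195 and 3689 counts in tRNA-Phe-2-1-/- and 26200, 35321 and 13792 in tRNA-Phe-1-1-/- (-2.74, limma adjusted p = 0.00012).

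In the brain of the same genotype, 0 of 19228 genes passed against WT (0%, lowest limma adjusted p 0.849), with 1071 genes at unadjusted p below 0.05, and on recovered reads 0 called by edgeR and 18 by DESeq2. The brain table was normalised on its own, so no test was made across the tissues. Of the 21 liver genes 20 were tested there, 17 with a negative and 3 with a positive log2 fold change. Their values ranged from -5.68 to 0.52, and their lowest limma adjusted p was 0.849. Over the 14456 liver-tested genes that were also tested in the brain, the median log2 fold change was -0.0. Acly was at 0.15 and Ppard at -0.17 in the brain, and the fatty acid synthesis list had a median of -0.02 over 21 tested genes.

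**Figure D5:**
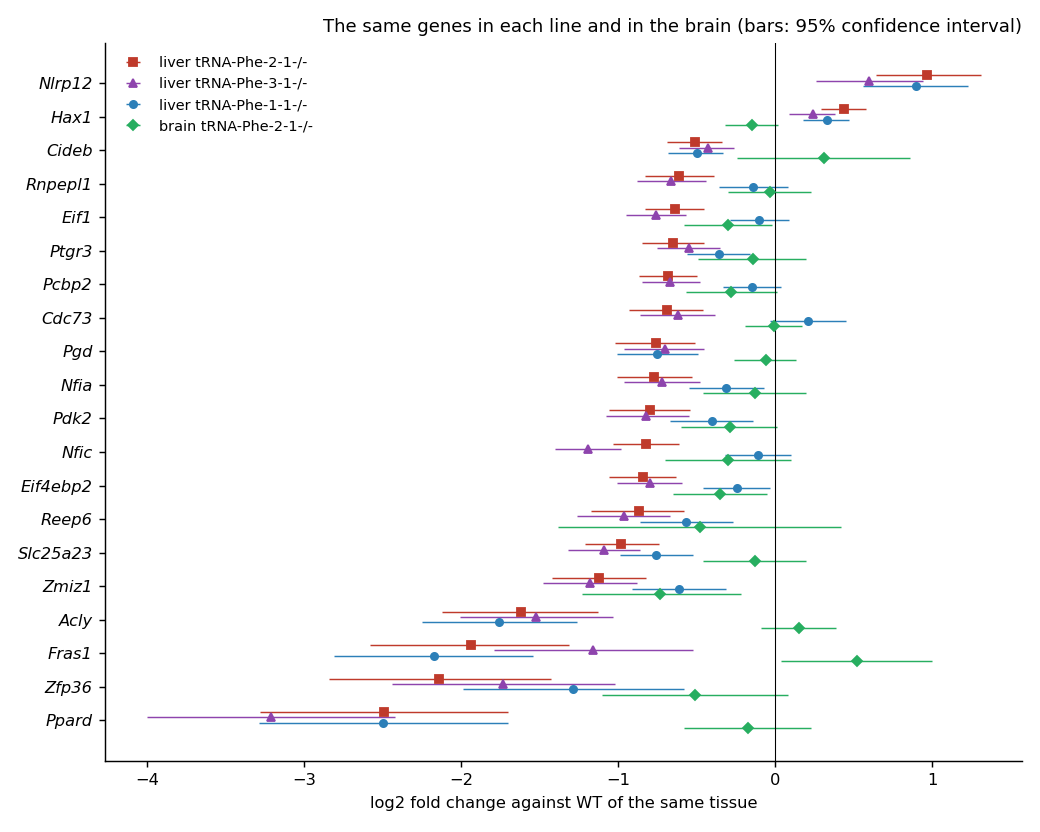
The genes called in liver tRNA-Phe-2-1-/- in each line and in the brain. Points are log2 fold changes against the WT samples of the same tissue (squares, liver tRNA-Phe-2-1-/-; triangles, liver tRNA-Phe-3-1-/-; circles, liver tRNA-Phe-1-1-/-; diamonds, brain tRNA-Phe-2-1-/-) and bars 95% confidence intervals; Cdc73 and Nfic lie near 0 in tRNA-Phe-1-1-/-, while Acly and Ppard lie far left in each liver line and near 0 in the brain. Myh6 is left out, and the liver lines share their WT samples.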

How the data were processed

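The authors isolated total RNA, sequenced it on an Illumina instrument, trimmed the reads with Trim Galore and cutadapt, aligned them with STAR to GRCm38.p6, quantified them with Salmon with corrections for sequence and GC bias, and normalised each tissue with DESeq2. The deposited tables hold a signal made by the authors, the estimated count of a gene divided by 1 size factor per sample, for 55469 genes. The values of a sample were whole multiples of 1 step (100% within 0.001), which gave the depth and whole reads for count tests. Those tests left out replicate C of tRNA-Phe-3-1-/-, since its step was close to 1, and used 11 liver samples. In the brain, replicate C of tRNA-Phe-1-1-/- was left out for the same reason. The 12 deposited comparison tables hold the authors' fold changes and s-values and were not used.

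The test was limma 3.58.1 (R 4.3.3) after adding 1 and taking log2 (variance trend, 12 liver samples in 4 groups, genes with a mean of at least 10 counts, two-sided, Benjamini-Hochberg adjustment within a comparison). A pseudocount understates changes of low genes. Alternatives were pseudocounts of 0.1 and 5, a minimum mean of 50 or none, quantile and TMM scaling, no trend, a replicate block, the 6 samples alone, edgeR 4.0.16, DESeq2 1.42.0 and each sample left out. The procedure was tested on simulated data. The comparison, the gene lists and the rule for named genes (calls; 3 members of a list, or 5 for fatty acid synthesis; phenylalanine genes; neighbours; 10 genes next to the threshold) were chosen with earlier results of these data known; a gene named outside it is said to be so. Replicates of a group never agreed within sampling noise. In WT the chi-square per gene on recovered reads was 84.2 for A with B, 72.8 for A with C and 31.1 for B with C. In tRNA-Phe-2-1-/- these values were 53.6, 59.9 and 33.1, so replicate A stood farthest off in both groups. Symbols (93.2% of identifiers matched) came from GENCODE vM39, positions and promoters from RefSeq for GRCm38.p6. Some genes of the lists are not reported here by name.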

Additional observations from a re-analysis of the deposited data

Results flagged for a closer look

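In 9 genes that fell against WT, the level in liver tRNA-Phe-2-1-/- also differed from that in tRNA-Phe-1-1-/- (limma, adjusted p below 0.05). The log2 difference, tRNA-Phe-2-1-/- minus tRNA-Phe-1-1-/-, was -0.90 for Cdc73, -0.70 for Nfic, -0.60 for Eif4ebp2, -0.54 for Eif1 and for Pcbp2, -0.51 for Zmiz1, -0.47 for Rnpepl1, -0.46 for Nfia and -0.40 for Pdk2. Cideb fell in liver but had a log2 fold change of 0.31 in the brain, where 3 of the 20 called liver genes tested had a positive value. It did not pass in the brain, where the lowest limma adjusted p of the called liver genes was 0.849. The difference between the tissues was not tested. Groups of 3 samples are too small to look for single outlying samples.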

How the results depend on the processing

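The 21 genes of liver tRNA-Phe-2-1-/- against WT became 0 without the variance trend, 176 with the 6 samples alone (48 higher, 128 lower), 8 with edgeR and 527 with DESeq2 (170 higher, 357 lower), and 0 to 38 with 1 sample left out. The same replicate letters did not mark a stated litter or batch, and the deviations of same-lettered samples correlated at -0.047, -0.031 and -0.002; with the letter as a replicate block 1 gene, Slc25a23, passed. The pseudocounts, filters, TMM and quantile scaling gave 18 to 26 genes. The number against tRNA-Phe-1-1-/- was 1149 to 2574 with 1 sample left out. Against tRNA-Phe-3-1-/- the 0 genes became 1 without a filter and 56 with DESeq2, and in the brain 1 and 18. Leaving out a sample gave 0 in each of these for all samples. All 21 genes kept their sign wherever they were tested, and the cause of these changes was not tested. Under quantile scaling the median of the elongation list moved from -0.079 to -0.108. The list medians with 1 sample left out were added after seeing the data; those of the nuclear receptor, synthetase, Dbp-phase clock, mitosis, stellate cell and neutrophil lists and of Nnt changed sign, and that of the cytochrome P450 list went from 0.09 to 0. Genes with a mean under 10 counts were not tested at this depth.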
